A study of Mus musculus with 2 samples.

Results

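Stromal genes were examined in RNA of inflammatory monocytes sorted from the colon: 32 genes of connective tissue matrix, smooth muscle and endothelium, out of 22180 genes that a probe set named singly. The 32 were taken from a list of names chosen with earlier results of these data known. It held 19 of fibroblasts and the matrix they secrete, 5 of smooth muscle and 8 of endothelium. All 32 had a probe set and all 32 matched a mouse gene in RefSeq under the same symbol. The cells had been isolated from the lamina propria of the colon in wild-type (WT) and Nlrp6-/- mice, both of the C57BL/6 strain. NLRP6 is a NOD-like receptor that can assemble inflammasomes and is known mainly from the gut. Every mouse had been given 10 mg/kg of the carcinogen azoxymethane (AOM) intraperitoneally. From day 5 it was given 2% dextran sodium sulfate (DSS), a chemical that damages the gut lining, over 5 days, and cells were taken on day 10. The sorting gate kept CD11b+ cells with high Ly6C that lacked CD3 and Ly6G. One Mouse Gene ST 2.1 array was run per genotype. The labels used here give the genotype without a description of the allele, and no number, age or sex of the mice behind each array.

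Fibroblasts of the lamina propria secrete fibrillar collagens, chiefly types I and III, with small amounts of type V, and small leucine-rich proteoglycans such as decorin and lumican that bind collagen fibrils. Smooth muscle of the colon wall and of vessels, and myofibroblasts, contract through actin, myosin and their partners, and endothelial cells line vessels and are joined by VE-cadherin. None of these cells is a monocyte, but a few of the 32 genes, such as Pecam1 and Eng, are known to be expressed in cells of the monocyte lineage as well. In RNA of a whole sort, the presence of a few cells of another type and a low level in many cells cannot be told apart.

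Levels are the authors' log2 values after robust multiarray averaging (RMA), and a difference is always the Nlrp6-/- level minus the WT level, so that 1 means 2-fold. With 1 array per genotype no difference has an error or a test, and all values describe these 2 arrays. A gene was taken as measured on an array when its level lay above that of 95 percent of the 1405 olfactory and vomeronasal receptor probe sets, whose genes monocytes are not known to use. This floor was 3.26 in WT and 3.22 in Nlrp6-/-. The differences of those receptor probe sets had a standard deviation of 0.19, which served as a yardstick of spread at low levels. Of the sorting markers, Ly6c2 had levels of 9.06 in WT and 9.36 in Nlrp6-/-, and Itgam, which encodes CD11b, had 8.46 and 8.25. Ly6g was just above the floor, at 3.32 and 3.58, and Cd3e was at 4.21 and 3.98. Nlrp6 itself was below the floor on both arrays, at 2.32 and 2.67, and so gave no check of the genotype.

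Most matrix genes were higher in Nlrp6-/-, led by Mgp, Col1a2, Lum, Col6a1 and Dcn. The muscle and endothelial genes lay on both sides of their WT level. Of the 19 fibroblast and matrix genes 18 were above their WT level, with a median difference of 0.32. The 18 include Pdgfrb and Col1a1, higher by only 0.003 and 0.05. They also include Col5a1, Col5a2 and Col4a2, which were below the floor on both arrays. Over all 22180 genes the median was -0.01, with quartiles of -0.16 and 0.14, and 48.1% were higher by any amount. The median was -0.05 for the 5 smooth muscle genes, 2 of which were higher, and 0.08 for the 8 endothelial genes, 4 of which were higher. Only 4 of the endothelial genes were above the floor, on both arrays, and 75% of these were higher, with a median of 0.21. The 15 fibroblast and matrix genes above the floor on both arrays had a median of 0.52. No test compared these groups. Epithelial markers, which the gate should leave out as well, were higher too, 17 of 20 with a median of 0.49, and their part in the matrix result was not tested.

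Of the 32 genes 24 were measured on both arrays and 1, Col6a2, on the Nlrp6-/- array only, where it reached 3.50 against 3.20 in WT. The other 7 were below the floor on both: Col5a1, Col5a2, Col4a2, Vwf, Tie1, Emcn and Esam, with levels from 2.44 to 3.08. Their differences, from -0.17 to 0.23, are differences between levels that cannot be told from background. In Nlrp6-/-, 4 of the 32 reached at least 2-fold above WT, and all 4 were matrix genes measured on both arrays. Among the 9536 genes measured on at least 1 array, 1.61% reached 2-fold in the higher direction and 0.325% in the lower. None of the 32 was 2-fold lower. The 4 became 2, Mgp and Lum, when the probe sets of a gene were averaged. Under a floor set by 99 percent of the receptor probe sets they also became 2, there Mgp and Col1a2. At 1.5-fold, 6 were higher and 0 lower, against 6.21% higher and 3.05% lower of the 9536.

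**Figure D1:**
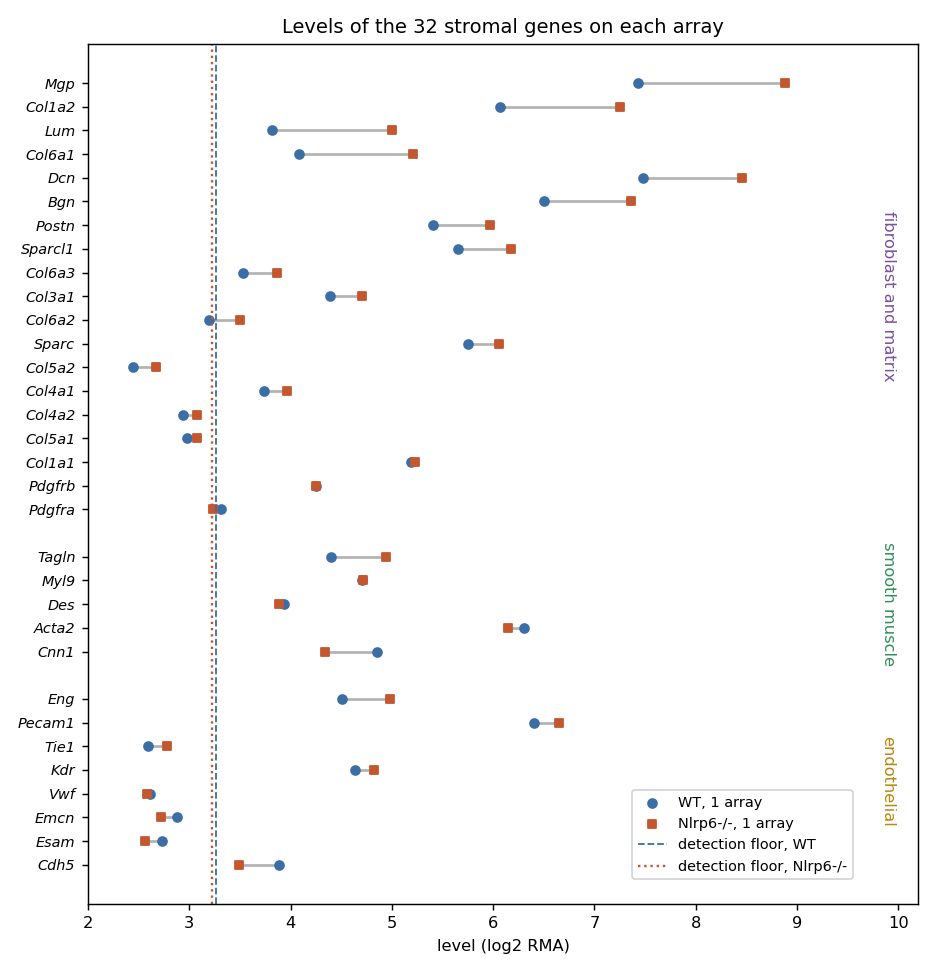
Log2 RMA levels of the 32 genes on the WT array (blue circles) and the Nlrp6-/- array (orange squares), ordered by difference within each group, with the detection floor of each array as a vertical line. The matrix genes from Mgp to Bgn show the widest gaps, with Nlrp6-/- to the right, while muscle and endothelial genes lie on either side of their WT level.

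Mgp and the small leucine-rich proteoglycans were among the genes with the widest differences. Mgp encodes matrix Gla protein, an inhibitor of calcification. It was at 7.43 in WT and 8.88 in Nlrp6-/-, 2.74-fold higher, the highest difference of the 32. Decorin and lumican are related proteoglycans that space collagen fibrils. Dcn was at 7.48 in WT and 8.46 in Nlrp6-/-, 1.98-fold higher and just short of 2-fold. Lum was at 3.82 and 5.00, 2.27-fold higher. Dcn and Lum lie next to each other in the order of protein-coding genes, and their differences were 0.98 and 1.18. Bgn, which encodes the related biglycan, was at 6.51 and 7.36, 1.81-fold higher. These 4 genes were measured on both arrays, and all were higher in Nlrp6-/-.

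Matricellular proteins bind cells and matrix without forming fibrils, and their genes differed less. Postn, which encodes periostin, a protein of wound and tumour stroma, was at 5.40 in WT and 5.97 in Nlrp6-/-. Sparc, a collagen-binding glycoprotein, was at 5.75 and 6.05, and its relative Sparcl1 at 5.65 and 6.18. Their differences of 0.56, 0.30 and 0.52 were below 1.5-fold, which is 0.58. So were those of 90.2% of the 8567 genes above the floor on both arrays, in either direction. The 0.19 of the receptor probe sets describes low levels and gives no yardstick for these brighter genes.

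On the probe sets used, the chains of type I and of type VI collagen differed unequally. Type I collagen is built from the products of Col1a1 and Col1a2. Col1a2 was at 6.07 in WT and 7.26 in Nlrp6-/-, 2.28-fold higher, whereas Col1a1 was at 5.19 and 5.23, a difference of 0.05. The gap between these differences was 1.14. Col3a1, the single chain of type III collagen, was at 4.38 and 4.71, a difference of 0.32. Type VI collagen forms beaded filaments around cells from the products of Col6a1, Col6a2 and Col6a3. Col6a1 was at 4.08 in WT and 5.21 in Nlrp6-/-, 2.18-fold higher. Col6a3 was at 3.53 and 3.86, with a difference of 0.33, and that of Col6a2 was 0.30, or 0.24 with its WT level set to the floor. Col6a1 thus stood 0.79 above Col6a3 and 0.82 above Col6a2, which is its neighbour on the chromosome. Col6a2 and Col6a3 themselves were close, and so were the chains of type V collagen, both below the floor, with a gap of 0.12. The wide gaps within types I and VI rest on single probe sets of Col1a2 and Col6a1.

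Both collagen genes at least 2-fold higher had a second probe set with a narrower difference. The other Col1a2 probe set was at 3.25 in WT, just under the floor, and 3.48 in Nlrp6-/-, 0.22 apart. That of Col6a1 was at 4.52 and 4.58, a difference of 0.07. For Col6a1 the probe set used was the lower of the pair in WT and the higher in Nlrp6-/-, so the rule of the highest mean was met through the Nlrp6-/- level. With the probe sets averaged, the differences were 0.71 for Col1a2 and 0.60 for Col6a1, and 2 of the 32 genes, Mgp and Lum, were 2-fold higher. The second Bgn probe set was at 5.94 and 6.34, a difference of 0.39, and the Bgn average was 0.62. The probe sets used for Col1a2 and Col6a1 both come from the last block of the array's identifiers, in which 27.0% of measured probe sets were 1.5-fold apart against 10.5% of the others. Both Col5a1 probe sets were below the floor on both arrays. The gaps between the paired differences were 0.97 for Col1a2, 1.06 for Col6a1 and 0.46 for Bgn. Over 422 genes that had more than 1 probe set above both floors, the median gap was 0.31 and the 90th percentile 0.79. Mgp, Dcn, Lum and 25 others of the 32 had 1 probe set, so no such comparison could be made for them.

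**Figure D2:**
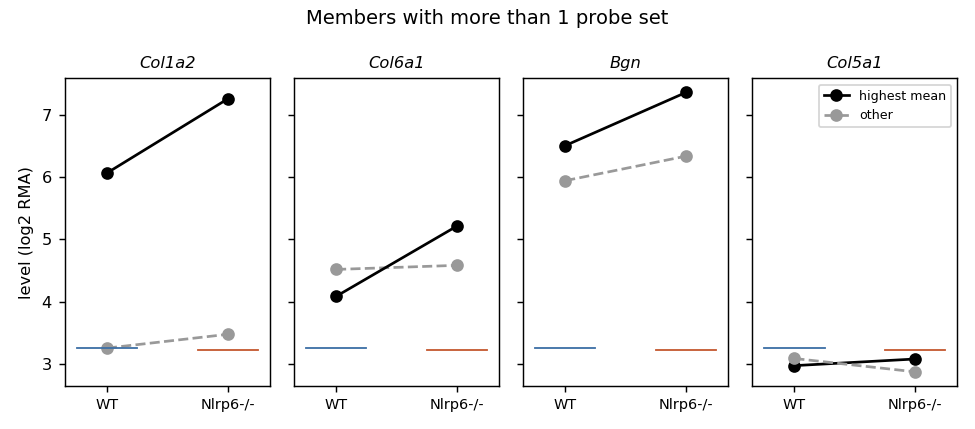
Levels (log2 RMA) on the WT and Nlrp6-/- arrays for each single-symbol probe set of the 4 genes that have a pair of them, the one used as a solid black line and the other as a dashed grey line, with each array's floor as a short horizontal line. For Col1a2 and Col6a1 the solid line climbs from WT to Nlrp6-/- by 1.19 and 1.13, while the dashed line climbs by 0.22 and 0.07.

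Basement membrane collagen and the receptors of fibroblasts and pericytes differed by 0.23 or less. Col4a1 and Col4a2 encode the main chains of type IV collagen and are transcribed head to head, with RefSeq start sites 21 bases apart. Col4a1 was at 3.74 in WT and 3.96 in Nlrp6-/-, 0.23 apart, and Col4a2 was below the floor, with a difference of 0.14. Pdgfra, the PDGF receptor of fibroblasts, was barely above the floor, at 3.31 and 3.23, and was the only matrix or fibroblast gene below its WT level. Pdgfrb, the receptor of pericytes and other mural cells, was at 4.25 on both arrays. The 2 receptors in the list thus differed by 0.08 or less, and secreted products by 0.05, for Col1a1, up to 1.45, for Mgp.

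Smooth muscle genes were all measured on both arrays and lay on both sides of their WT level. Acta2, smooth muscle actin, was at 6.30 in WT and 6.14 in Nlrp6-/-, with a difference of -0.16. Tagln, the actin-binding transgelin, had levels of 4.40 and 4.94, and its difference of 0.54 was the highest of the group. Cnn1, calponin, which also binds actin, had levels of 4.85 and 4.34, and its difference of -0.51 was the lowest of all 32 genes. Myl9, a regulatory light chain of myosin, was at 4.70 and 4.72, and Des, the intermediate filament desmin, at 3.93 and 3.88. No gene of this group differed by 1.5-fold, against 6.21% higher and 3.05% lower of the 9536 genes.

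Endothelial genes were split between measured and unmeasured ones. Pecam1, the adhesion molecule CD31 of endothelium, platelets and monocytes, was at 6.40 in WT and 6.65 in Nlrp6-/-. Eng, endoglin, a co-receptor for TGF-beta family ligands, was at 4.51 and 4.98, a difference of 0.48, the highest of the group. Kdr, the VEGF receptor 2 of endothelium, was at 4.64 and 4.82. Cdh5 encodes VE-cadherin, which joins endothelial cells, and was lower in Nlrp6-/-, at 3.88 in WT and 3.49. The other 4 were below the floor on both arrays: Vwf, the clotting factor stored by endothelium and platelets, at 2.62 and 2.58, the receptor gene Tie1 at 2.59 and 2.78, the sialomucin gene Emcn at 2.88 and 2.72, and the junction gene Esam at 2.73 and 2.56. None of the 8 differed by 1.5-fold, against 6.21% higher and 3.05% lower of the 9536 genes measured on at least 1 array.

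Among the 32 genes the difference went with the mean level. Spearman's rho between them was 0.55 over the 32 genes, 0.68 within the 19 fibroblast and matrix genes and 0.42 within the 13 others. It was 0.51 over the 24 members measured on both arrays, against -0.01 over all 8567 genes so measured, and 0.05 over all 22180 genes. All points come from the same pair of arrays and genes are not replicates, so these are descriptions without a test. Near the floor RMA levels can compress differences, so values for dim genes such as Col6a2 and Col6a3 may be understated. Whether this has a part in the relation of difference to level, or in the gaps between collagen chains, was not tested.

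**Figure D3:**
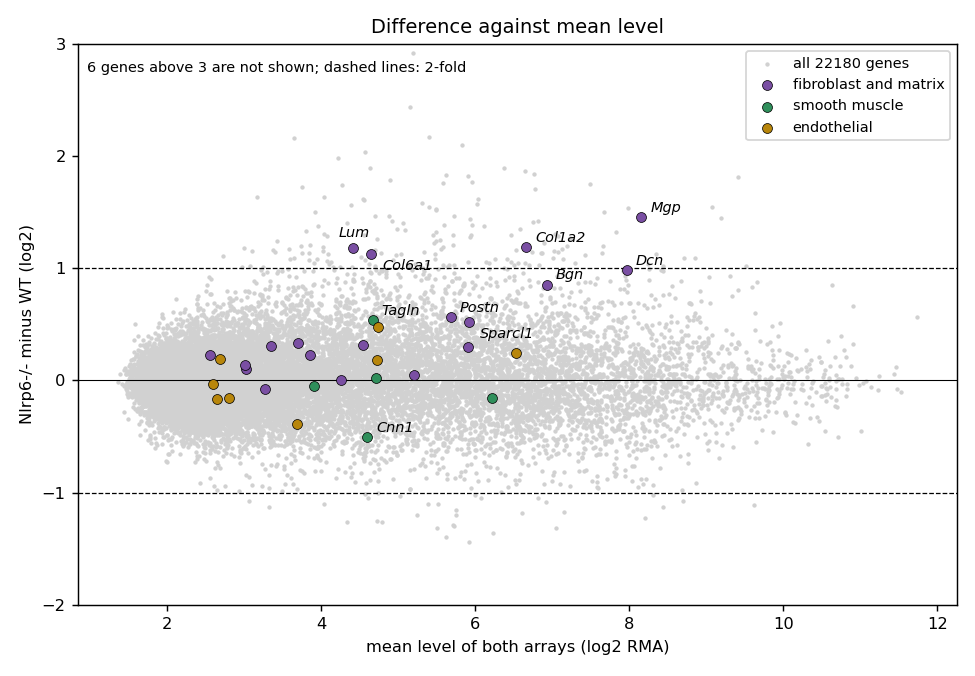
Difference (Nlrp6-/- minus WT, log2) against the mean level of both arrays (log2 RMA), with all 22180 genes in grey and the 32 genes coloured by group; dashed lines mark 2-fold, and 6 grey points above 3 are outside the axis. Mgp, Col1a2, Lum and Col6a1 lie above the upper dashed line, and no coloured point lies below the lower one.

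Promoter sequence was available in the RefSeq table (GRCm38.p6) for 20 of the 32 genes, as 22 windows from 250 bases before to 50 after a start site. The stretches below are shown because Col1a2 and Col6a1 are the 2-fold higher genes that have a window, and because Myl9, Kdr and Col3a1 each hold a match to the CArG box, CCGGAA or TATAAA. All are read 5′ to 3′ on the gene's strand and end before the start site. Capitals mark the motif named on the line, and matches to GGAAG, the fourth motif searched, are not marked.
Col1a2, chr6:4505518-4505617, plus strand: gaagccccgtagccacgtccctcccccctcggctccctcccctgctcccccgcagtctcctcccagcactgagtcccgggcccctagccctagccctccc
Col6a1, chr10:76726045-76726144, minus strand: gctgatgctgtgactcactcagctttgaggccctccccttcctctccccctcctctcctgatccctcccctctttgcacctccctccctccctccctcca
Col3a1, chr1:45311388-45311487, plus strand, TATAAA: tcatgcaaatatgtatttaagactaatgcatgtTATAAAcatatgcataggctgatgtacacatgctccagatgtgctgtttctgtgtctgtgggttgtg
Myl9, chr2:156775264-156775363, plus strand, CArG box: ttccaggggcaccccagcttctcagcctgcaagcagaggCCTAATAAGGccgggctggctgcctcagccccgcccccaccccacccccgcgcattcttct
Kdr, chr5:75978556-75978655, minus strand, CCGGAA on the other strand: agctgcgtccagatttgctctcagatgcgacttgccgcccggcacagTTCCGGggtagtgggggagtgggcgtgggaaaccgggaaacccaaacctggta

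The CArG box, the binding motif of serum response factor, which drives many smooth muscle genes, matched 1 of the 4 smooth muscle windows, that of Myl9, at positions -161 to -152. It matched 1.63% of all 32851 windows in the table. Myl9 differed by 0.02 between the arrays. TATAAA matched 2 of the 22 windows, those of Col3a1 at -117 to -112 and 1 of the Postn windows at -26 to -21, against 13.6% of all windows. Of the endothelial genes 4 had a window. CCGGAA, a core of ETS factor sites, matched 1 of them, Kdr, and 14.9% of all windows. GGAAG, which shares GGAA with it, matched all 4, 16 of the 22 windows in all, and 71.4% of the whole table. Both strands were searched throughout, and a match is a description of the letters only.

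Some further fibroblast markers were higher in Nlrp6-/- too, from a list of 31 of which 30 had a probe set. This list and the other lists below were also chosen with earlier results of these data known, so they give no independent support. Of the 30, 20 were higher and 10 lower, with a median of 0.20, and 14 were below the floor on both arrays. Among the 16 measured on 1 or both arrays, 4 were 2-fold higher and 0 lower, against 1.61% and 0.325% of the 9536 genes. At 1.5-fold 6 were higher and 0 lower, against 6.21% and 3.05%. Ccl11, eotaxin, a chemokine for eosinophils, was at 4.81 in WT and 6.10 in Nlrp6-/-. Dpt, which encodes the matrix protein dermatopontin, was at 6.60 and 7.86. Fap, fibroblast activation protein, was at 3.40 and 4.48, and Tcf21, a transcription factor of mesenchymal cells, at 3.38 and 4.43. All 4 were measured on both arrays and were higher by 1.05 to 1.29. In WT, however, Fap and Tcf21 lay only 0.14 and 0.12 above the floor. Lrp1, an endocytic receptor that monocytes and macrophages make as well, had the lowest difference of the 30, -0.41, with levels of 6.77 and 6.36.

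Further matrix genes, 37 with a probe set, had a median difference of 0.20, with 27 higher. At 1.5-fold 6 were higher and 1 lower, against 6.21% and 3.05% of the 9536 genes, with 22 measured on 1 or both arrays and 6 of these in Nlrp6-/- only. Ogn, osteoglycin, a relative of decorin and lumican, was 2-fold higher, at 4.18 in WT and 5.21 in Nlrp6-/-. Efemp1, a fibulin, was at 4.37 and 5.32. Aspn, asporin, another relative of decorin, was measured in Nlrp6-/- only, at 3.92 against 2.95, and Mfap5, a microfibril protein, was likewise at 3.93 against 3.20. Against the floor in WT these were at least 1.58-fold and 1.59-fold higher. Lamc1, a laminin chain that many cell types make, was lower in Nlrp6-/-, at 6.73 and 6.10.

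Genes that modify, fold and cross-link collagen were listed as well. Of 25 with a probe set 18 were higher, with a median of 0.09. Among the 15 measured on at least 1 array 0 differed by 1.5-fold, with a level below the floor set to the floor. Over the 9536 genes 6.21% were higher and 3.05% lower by as much, so 0 of 15 is not read as a trait of these genes. Bmp1, the protease that trims the end of procollagen, was measured in Nlrp6-/- only, at 3.73 against 2.91, and so at least 1.38-fold higher. Pcolce2, which enhances that protease, was also measured in Nlrp6-/- only, at 3.42 against 2.94. So was P3h1, a prolyl hydroxylase of collagen, at 3.49 against 3.02. P4ha1, a subunit of another prolyl hydroxylase, was at 6.33 in WT and 6.80 in Nlrp6-/-. Serpinh1, the collagen chaperone HSP47, was at 3.51 and 3.44.

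Further smooth muscle and pericyte genes had a median of -0.004, with 12 of 25 higher. Of the 16 measured on 1 or both arrays 0 were higher and 1 was lower at 1.5-fold, against 6.21% and 3.05% of the 9536 genes. The lower one was Csrp1, a LIM-domain protein, at 6.12 in WT and 5.51 in Nlrp6-/-. Myh11, smooth muscle myosin heavy chain and a defining marker, was at 5.64 and 5.67, and Actg2, enteric smooth muscle actin, at 5.90 and 5.86. Lmod1, the actin-nucleating leiomodin, was measured in Nlrp6-/- only, at 3.39 against 2.87. Pln, phospholamban, was at 4.34 and 3.87, and Npnt, the matrix protein nephronectin, at 3.65 and 3.26. The 35 further endothelial genes had a median of 0.04, and only 10 were measured on at least 1 array. None of these 10 was 1.5-fold apart, against the same 6.21% and 3.05%. S1pr1, a receptor for sphingosine 1-phosphate, was at 4.19 and 3.71, and Sele, E-selectin, at 4.01 and 3.56. Ligands, receptors and targets of the TGF-beta and PDGF pathways, 21 genes, had a median of 0.001, with 11 higher. Of the 16 measured on 1 or both arrays 0 were higher and 1 was lower at 1.5-fold, against the same 6.21% and 3.05%. The lower one was the ligand gene Tgfb1, at 7.90 in WT and 7.24 in Nlrp6-/-. Smad2 was also lower, at 7.18 and 6.82, while Vegfc, at 3.44 and 3.85, and Pdgfa, at 3.28 and 3.63, were higher.

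**Figure D4:**
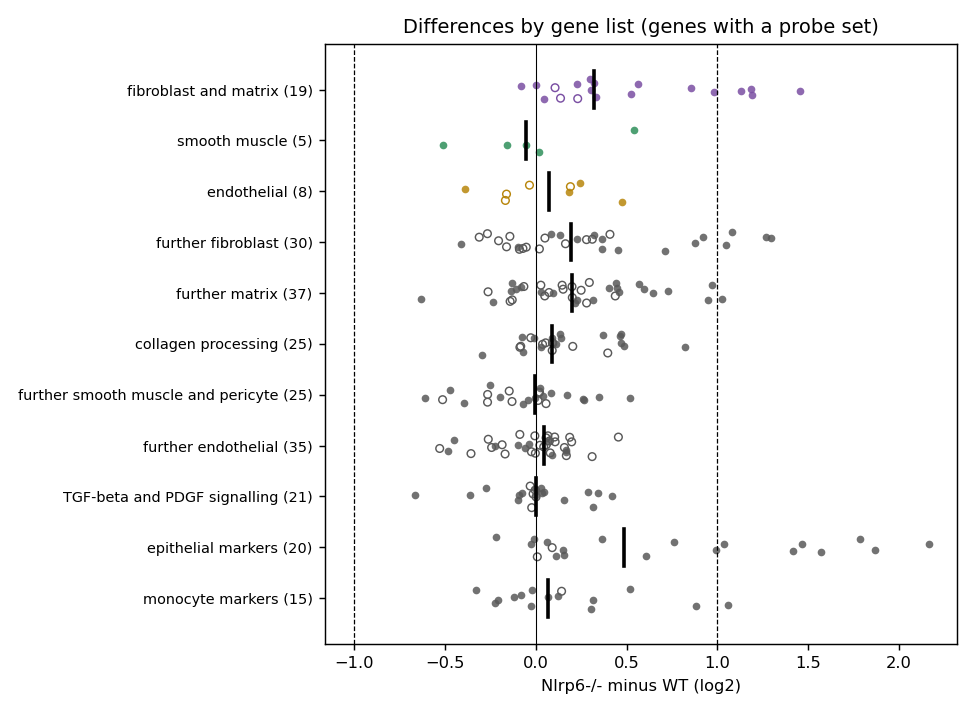
Differences (Nlrp6-/- minus WT, log2) of each gene in the 3 member groups, 6 pathway lists and 2 marker lists; filled points are genes above the floor on at least 1 array, open points are below it on both, vertical bars are medians over all points of a row, and dashed lines mark 2-fold. Medians are 0.32 for fibroblast and matrix genes, -0.05 for smooth muscle, 0.08 for endothelium, 0.49 for epithelial and 0.07 for monocyte markers.

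Markers of some other cell types were higher in Nlrp6-/- as well. The 20 epithelial markers ranged in difference from -0.22 to 2.16, and their summed linear level (2 to the power of the log2 level) was 471 in WT and 903 in Nlrp6-/-. The same sum was 827 and 1568 for the 19 fibroblast and matrix genes, or 477 and 744 for the 17 without Mgp and Dcn. It was 170.2 and 162.7 for the 5 smooth muscle genes and 173.1 and 196.6 for the 8 endothelial genes. The 30 further fibroblast genes summed to 599 and 883. For the 37 further matrix genes the sum was not higher in Nlrp6-/-, at 3082 in WT and 2983. For 15 monocyte markers, which share Fn1 with the further matrix list, the sum was 7197 and 6984, with 8 higher and a median of 0.07. Of the 14 measured, F13a1, at 5.38 in WT and 6.44 in Nlrp6-/-, was 2-fold higher, against 1.61% of the 9536 genes. With Fcgr1, at 7.05 and 7.93, 2 were 1.5-fold higher and 0 lower, against 6.21% and 3.05%. The median was 0.40 for B and plasma cell markers (8 of 11 higher), 0.20 for those of T and NK cells (10 of 13) and 0.09 for those of neutrophils (6 of 12). Of the neutrophil markers 7 were measured on 1 or both arrays, with a median of 0.50, and 3 of them were 2-fold higher against 1.61% of the 9536 genes. These were S100a8, at 6.44 and 7.60, S100a9, at 5.99 and 7.01, and Retnlg, measured in Nlrp6-/- only, at 5.21 against 3.23. Cxcr2, measured in Nlrp6-/- only, at 3.57 against 3.07, and Ly6g, at 3.32 and 3.58, were higher by less. Mmp8, at 7.09 in WT and 6.92 in Nlrp6-/-, and Csf3r, at 8.25 and 8.20, were lower. The other 5, Camp, Ltf, Ngp, Mpo and Elane, were below the floor on both arrays. Platelet markers had a median of -0.05 (4 of 10), with Pf4 at 4.87 and 6.11 and Ppbp at 3.74 and 2.90. All 9 enteric glia and neuron markers were below the floor on both arrays. In a list of 8 mesothelial markers 4 were higher, and 3 of these 4 were the keratins Krt8, Krt18 and Krt19 shared with the epithelial list. Msln, the defining marker, was below the floor on both arrays, at 2.49 and 2.34. Upk3b was the only marker of this list apart from the keratins that was measured. It was lower in Nlrp6-/-, at 4.59 in WT and 4.24 in Nlrp6-/-. The part of any of these cells in the matrix differences was not tested.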

How the data were processed

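RNA of sorted colon monocytes was measured on 1 array each of WT and Nlrp6-/- mice. Per the labels' protocols, 10 ng of RNA was amplified with a NuGEN kit, although another field names an Affymetrix kit, and 3.7 µg of cDNA was hybridised. Per the labels, the authors computed log2 levels by RMA with the oligo package in R 2.15.1. RMA equalises the distributions of arrays, so a shift of all transcripts cannot be seen. The set of arrays that entered RMA is not stated in those protocols.

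Of 41345 probe sets, 23521 had 1 gene symbol in the platform annotation, 1814 several and 16010 none, and only the first were named. The probe set with the highest mean of both arrays stood for a gene. A level below the floor was replaced by the floor in counts at 1.5-fold and 2-fold, so those differences are bounds. The members and lists were chosen with earlier results of these data known. In each further list up to 4 measured genes were named, in order of the size of their difference in either direction. Lrp1, Lamc1, Serpinh1, Myh11, Actg2, Msln and Upk3b were added after their values were seen. So were the neutrophil markers other than S100a8, S100a9, Retnlg and Ly6g. With 1 array per genotype no test was run, and the number of arrays limits the precision. Alternatives were other normalizations (loess span 0.3, statsmodels 0.14.6), floors, filters and probe set rules. Python 3.11.15 was used.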

Additional observations from a re-analysis of the deposited data

How the results depend on the processing

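The 4 genes at least 2-fold higher became 2, Mgp and Lum, when a gene's probe sets were averaged. They became 2, Mgp and Col1a2, under a stricter floor set by 99 percent of the receptor probe sets (5.08 in WT, 4.89 in Nlrp6-/-). Under that floor 14 of the 32 genes were measured on at least 1 array, and 1.88% of 4950 genes were 2-fold higher. The median of the fibroblast and matrix genes, 0.32 over all 19, was 0.52 over those above the floor on both arrays. Their mean was 0.52. In the other settings run, the counts stayed within 1.5 times, and the medians of all members, smooth muscle and endothelial genes moved by less than 0.19. Of 160 differences of single genes under other settings, 155 moved by less than 0.19 and 0 of the 2-fold genes changed sign. The 5 that moved by more were the averages of Col1a2, Col6a1 and Bgn, and Col5a2 and Tie1 with both levels set to the floors. Many of the 155 were bound to stay. Averaging can change only the 4 genes with several probe sets, not the 28 with 1. Setting low levels to the floors cannot change the 24 genes measured on both arrays. No paired analysis was possible because each genotype has 1 array. Dim genes limit the comparison: 7 of the 32 gave no measured level.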

Other observations

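The array's identifiers from 17547000 upward, a limit chosen after the values of Col1a2 and Col6a1 were seen, hold 211 single-symbol probe sets that were measured on 1 or both arrays. At 1.5-fold, 49 of them lay above and 8 below WT, together 27.0%. Of the 9908 with lower identifiers 695 were higher and 344 lower, together 10.5%. At 2-fold, 5.69% of the block and 1.76% of the rest were higher. In the block 74.9% of the probe sets belonged to a gene with another measured probe set, against 8.93% elsewhere. Of the 32 stromal genes, Col1a2 and Col6a1 were the 2 represented by a probe set of this block. The reason for the wider spread was not tested.

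Probe sets with several gene symbols were not used to name genes. Among them, 1 listed Col6a1 together with Rps21 and 2 predicted genes and was at 7.45 in WT and 7.70 in Nlrp6-/-. Another listed Des with a predicted gene and was at 3.45 and 3.32.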
